A study of Mus musculus with 26 samples.

Results

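The 13 polysome libraries of a series of 26 RNA-seq libraries are described here, divided by the weight of the tumour from which the cells came. All were made from macrophages of mouse mammary tumours. PyMT mammary tumour cells had been implanted into a mammary gland of female FVB mice, which were 5 to 7 weeks old at that time. Macrophages were sorted as cells with surface CD11b and F4/80 and without Ly6G, in the presence of cycloheximide, an inhibitor of translation that holds ribosomes on mRNA. The 5 large tumours weighed 1504 to 2245 mg and were those labelled T4, T22 and the 3 LR tumours. The 8 small tumours weighed 467 to 841.8 mg and were those labelled T2, T3, T15, T16, T19 and the 3 ER tumours. The division was made at 1000 mg on the weight label, and no expression value entered it. The labels place large replicates 1 and 2 and small replicates 1 to 5 in experimental batch 1, and large replicates 3 to 5 and small replicates 6 to 8 in batch 2. The labels give no other difference between the groups, and they do not say how long each tumour had grown, so size and the time of growth cannot be told apart.

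An mRNA in translation carries several ribosomes at once, and such polysomes sediment far into a sucrose gradient. The fraction read here held mRNA with 3 or more ribosomes. How many ribosomes an mRNA carries depends on how often translation starts, on how fast ribosomes move and on the length of the coding sequence, because a short coding sequence has room for few. Several classes of mRNA are known to be controlled at this step: those of ribosomal proteins, which open with a stretch of pyrimidines and answer to mTOR signalling, those that depend on the cap-binding protein eIF4E, and those of iron metabolism, in which an RNA hairpin near the cap is held by iron regulatory proteins when iron is scarce. A polysome level follows both the amount of an mRNA and its share on ribosomes, so the total mRNA of the same tumours is set beside it below.

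Levels are given in CPM, the count of a gene relative to the counts of its library, after TMM scaling, a correction of library size by the bulk of genes. A fold is the log2 ratio of large over small tumours from a fit with batch as a term, and errors of folds are standard errors. Polysome libraries held 13045733 to 28257436 counts in large tumours and 7034173 to 20284077 in small tumours. In batch 1 the groups did not overlap in depth, with 13045733 and 20699272 counts in large tumours and 7034173 to 10135223 in small tumours. The summed share of 16 macrophage markers was 4.66 to 10.7% of counts in large tumours. In small tumours it was 0.950% in replicate 7 and 2.38 to 6.18% in the other replicates. The sum includes Apoe, which alone had 11759 to 86925 CPM in large tumours and 2475 to 31821 CPM in small tumours. It also includes Csf1r, with a fold of −0.35, so the sum is not a count of macrophages. Small replicate 7 also stood apart in 18 fibroblast markers, with 0.742% of counts against 0.0169 to 0.125% in the other small tumours and 0.00421 to 0.0691% in large tumours. It held the highest share of 22 mammary epithelial and tumour markers as well, 0.194%, where the other polysome libraries had 0.00519 to 0.0502%. It was also highest for 12 monocyte markers, with 0.550% against 0.0545 to 0.386% in the other polysome libraries. The monocyte markers include Vcan, and Fn1, which is also in the matrix list below, so their sum is not a count of monocytes. Its parts were not separated. The median correlation of log2 CPM of small replicate 7 with the other polysome libraries was 0.651, and that of the other 12 libraries was 0.750 to 0.837. Markers of neutrophils, dendritic cells, T and NK cells, B cells, endothelium, red cells, mast cells, and fat and muscle each stayed at or under 0.0373% in every polysome library. Of 11 genes listed as signs of RNA quality, 1 has a row in the tables and none passed the filter.

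No gene passed the test of large against small tumours at an adjusted p of 0.05. Of 10933 genes tested, 0 were called (0% of genes; edgeR quasi-likelihood test, Benjamini-Hochberg adjustment), and 2, Hagh and Slc40a1, had an adjusted p under 0.1. At an unadjusted p under 0.05 there were 787 genes with higher levels in large tumours (7.2%) and 575 with lower levels (5.26%), which makes 57.8% of these genes higher. The fold was above 0 in 49.4% of all tested genes, with a median of −0.01. That split depends on the scaling: 49.3% of the genes at this p were higher with RLE scaling, 43.0% with upper-quartile scaling and 49.2% with Lars2 left out of the library size. In 54 genes every large tumour lay above every small tumour (0.494% of genes), and in 15 every large tumour lay below every small tumour (0.137%). The second count tool, DESeq2, called 92 genes higher (0.841%) and 60 lower (0.549%), each of them at an unadjusted p under 0.05 in edgeR. limma-voom called 0 genes, with 1188 higher and 590 lower at an unadjusted p under 0.05. Because no gene passed in edgeR, genes are named below by rank of p and with their values. Where DESeq2 called a gene, this is said.

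Hagh had the lowest p. It encodes the glyoxalase that finishes the conversion of methylglyoxal, a toxic by-product of glycolysis, to lactate. Its polysome level was 32.8, 65.1, 27.8, 39.8 and 56.7 CPM in large replicates 1 to 5, against 5.95 to 19 CPM in small tumours with a median of 9.84. Every large tumour lay above every small tumour, in both batches. The fold was 2.06 ± 0.35 (adjusted p = 0.0772), with 2.30 in batch 1 alone and 1.70 in batch 2 alone. In total mRNA of the same tumours the fold of Hagh was 0.15 ± 0.25. Hagh lies on chromosome 17 (24839781 to 24864450, mm10).

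The genes next in rank covered several organelles. Psmb9, a catalytic subunit of the immunoproteasome, had 79.8, 149, 86.8, 55.5 and 45.5 CPM in large tumours and 11.9 to 51.6 CPM, median 29.1, in small tumours (fold 1.76 ± 0.33). In 4 of 5 large tumours its level exceeded that of every small tumour. Sdhb, the iron-sulfur subunit of succinate dehydrogenase, had 136, 298, 185, 242 and 215 CPM in large tumours and 44.2 to 124 CPM, median 66.7, in small tumours (fold 1.49 ± 0.31). Its groups did not overlap. Rab20, a small GTPase of maturing phagosomes, had 101, 68.2, 44.3, 47.8 and 43.7 CPM in large tumours against 6.75 to 37.3 CPM in small tumours (fold 1.62 ± 0.33), again without overlap. Tecr, a reductase of very long chain fatty acid synthesis, had a fold of 1.46 ± 0.28 and Commd2, a COMM domain protein, one of 1.83 ± 0.37. The groups of Tecr and Commd2 did not overlap either. Selk, a selenoprotein of the endoplasmic reticulum (1.52 ± 0.30), and Rpl15, a protein of the large ribosomal subunit (1.34 ± 0.26), had 1 and 2 large tumours within the range of the small ones. The row of Nubp1 and Tvp23a, whose reads the tables do not divide, had 1.31 ± 0.24. The adjusted p of these 8 rows was 0.1 to 0.113, and DESeq2 called each of them.

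Of the genes with a fold below 0, Galnt1, the enzyme that starts mucin-type O-glycosylation, had 140, 76.8, 57.9, 81.1 and 71.9 CPM in large tumours against 142 to 247 CPM, median 200.2, in small tumours. Its fold was −1.18 ± 0.27 (adjusted p = 0.134). Marcks, a kinase substrate that links actin to the cell membrane, had 229, 287, 175, 165 and 207 CPM in large tumours against 349 to 716 CPM, median 521, in small tumours, with a fold of −1.26 ± 0.29. In both genes, and in Chmp4b, a component of the ESCRT-III membrane scission machinery (−1.19 ± 0.28), every large tumour lay below every small tumour. In total mRNA the fold was −1.52 for Chmp4b and −0.14 for both Galnt1 and Marcks. Egr3, an immediate early transcription factor, had 0.0784, 1.99, 1.54, 4.52 and 7.44 CPM in large tumours and 8.10 to 66.7 CPM in small tumours (−3.25 ± 0.82). Its groups did not overlap, and its fold in total mRNA was −2.13.

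Ctdspl, a phosphatase (−1.81 ± 0.39), D16Ertd472e (−2.02 ± 0.46), Tia1, an RNA-binding protein of stress granules (−1.30 ± 0.31), Rnf168, a ubiquitin ligase of the DNA damage response (−1.52 ± 0.38), Sox4, a transcription factor (−1.54 ± 0.39), and Ctnna1, alpha-catenin (−1.14 ± 0.29), each had 3 of 5 large tumours below every small tumour. Ctdspl, D16Ertd472e, Tia1 and Sox4 had their highest level in small replicate 7. DESeq2 called each of these 10 genes.

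**Figure D1:**
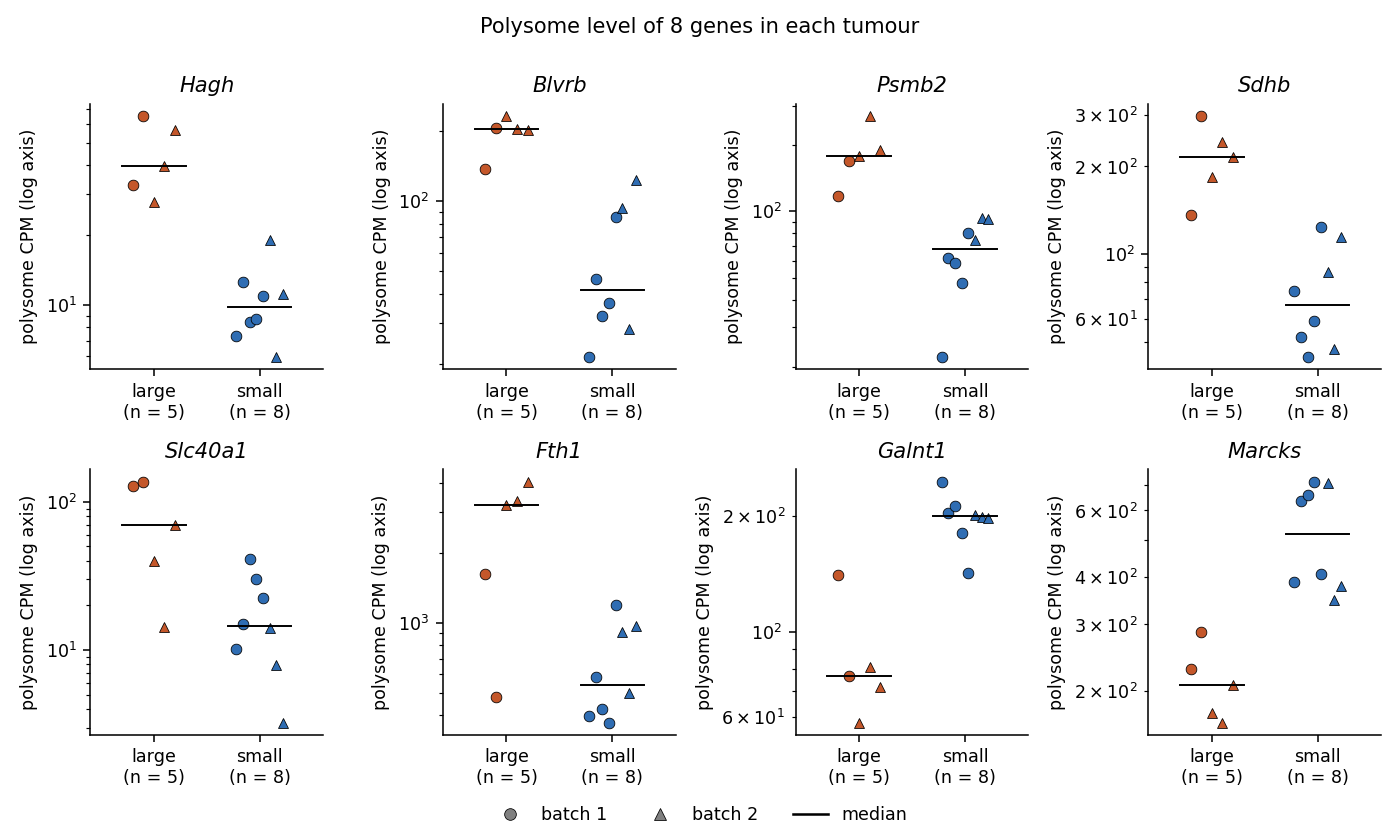
Polysome level of 8 genes, in TMM-scaled CPM on a log axis, with 1 point per tumour (circles batch 1, triangles batch 2) and a line at the median of each group. Large tumours lie above all small tumours for Hagh, Blvrb, Psmb2 and Sdhb and below all of them for Galnt1 and Marcks, while Slc40a1 and Fth1 overlap in 2 and 1 large tumours.

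The mRNAs of iron handling were of interest because some carry a known switch of translation, the iron-responsive element. This hairpin has a CAGTGN loop on a stem of 5 paired bases next to an unpaired C. The elements of ferroportin (Slc40a1) and of the heavy and light ferritin chains (Fth1, Ftl1) are shown as found in the 5′ UTR of GENCODE M21 transcripts, with the loop in capitals:
Slc40a1: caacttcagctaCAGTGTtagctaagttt
Fth1: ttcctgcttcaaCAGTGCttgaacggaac
Ftl1: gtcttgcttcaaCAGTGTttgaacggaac
They lie at chr1:45925465-45925493 (minus strand), chr19:9982732-9982760 (plus strand) and chr7:45459779-45459807 (minus strand) of mm10. The same loop and stem, read on the sense strand as C, 5 stem bases, CAGTGN and 5 bases that pair with the stem (G with T allowed), occur in the 5′ UTR of 28 of 19977 genes with a 5′ UTR of at least 30 bases (0.14%). Of those genes 14 were compared here, and 11 had a fold above 0, where 49.4% of all tested genes did. At an unadjusted p under 0.05, 3 had a fold above 0 and 1, Nfib (−2.29), a fold below 0.

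Slc40a1, the exporter of iron from cells, had 127, 137, 39.6, 14.4 and 70.2 CPM in large replicates 1 to 5 and 3.24 to 41.0 CPM, median 14.6, in small tumours. Large replicates 3 and 4 lay within the range of all small tumours, and replicates 1, 2 and 5 above it. Within each batch every large tumour lay above every small tumour. In batch 2 the margin was small, with 14.4 CPM in large replicate 4 and 14.1 CPM in small replicate 6. How many of all tested genes were divided in this way within both batches was not counted. The fold was 2.39 ± 0.41 (adjusted p = 0.0772), with 2.44 in batch 1 alone and 2.21 in batch 2 alone. It was called by DESeq2, without a filter on low counts, without small replicate 5, and with log2 tumour weight in place of the size classes. In total mRNA the fold was 1.52 ± 0.47 (unadjusted p = 0.00534, adjusted p = 0.865). The test of the difference between polysomes and total mRNA gave 0.75 ± 0.46 (unadjusted p = 0.115). Slc40a1 lies on chromosome 1 (45908070 to 45926532).

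Fth1, the ferritin chain that oxidises iron for storage, had 1625, 479, 3234, 3364 and 4066 CPM in large tumours and 371 to 1194 CPM, median 541, in small tumours. Large replicate 2 lay among the small tumours and the other large tumours lay above them. Its fold was 1.54 ± 0.43 (adjusted p = 0.18), against 0.07 ± 0.38 in total mRNA, and the difference between the RNA sources was 1.14 ± 0.40 (unadjusted p = 0.00861, adjusted p = 0.328). Ftl1, the chain that forms the iron core, had 6691, 4172, 9044, 11090 and 11135 CPM in large tumours and 1723 to 12880 CPM in small tumours. Every large tumour lay within the range of the small ones, and the fold was 0.56 ± 0.49 (unadjusted p = 0.259).

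Further genes of the iron list act on heme and uptake. Blvrb, which reduces biliverdin after heme is opened, had 138, 207, 233, 204 and 203 CPM in large tumours and 21.3 to 124 CPM, median 41.3, in small tumours. Its groups did not overlap and its fold was 1.67 ± 0.35 (adjusted p = 0.113), against 0.36 in total mRNA. Hmox1, the heme oxygenase that precedes it, had 428, 480, 487, 277 and 400 CPM in large tumours and 30.9 to 515 CPM, median 218, in small tumours (1.11 ± 0.42). All large tumours lay within the range of the small ones. Hfe, a class I-like regulator of iron uptake, had a fold of 1.33 ± 0.45 and Steap3, a ferrireductase, one of 1.03 ± 0.41. Ftl1, Hfe, Hmox1 and Steap3 were named after their values were seen. Of 16 tested genes of iron handling 10 had a fold above 0, 6 had an unadjusted p under 0.05 with a fold above 0 and none with a fold below 0. The median fold was 0.52, and 0.43 in total mRNA. Without small replicate 7 the median was 0.26, with a count of 6 and 0 at this p.

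The respiratory chain list, nuclear-encoded subunits of complexes I to V, had 58 tested genes, of which 52 had a fold above 0. Of these, 18 were at an unadjusted p under 0.05 with a fold above 0 and none with a fold below 0, and DESeq2 called 8. The median fold was 0.54, with 0.17 in batch 1 and 0.71 in batch 2, and it was −0.16 in total mRNA. Besides Sdhb, the lowest p were those of Atp5h, a subunit of the ATP synthase stalk, and Ndufb5, a subunit of complex I. Atp5h had 99.4, 91.9, 281, 309 and 216 CPM in large tumours and 20.8 to 170 CPM, median 47.1, in small tumours (1.10 ± 0.26). Ndufb5 had 45.8, 47.8, 125, 185 and 135 CPM in large tumours and 6.73 to 78.7 CPM, median 23.2, in small tumours (1.43 ± 0.34). Both genes had higher levels in batch 2 than in batch 1. In each batch every large tumour lay above every small tumour, a pattern not counted over all tested genes. The folds were 1.28 in batch 1 and 0.78 in batch 2 for Atp5h, and 1.56 and 1.18 for Ndufb5.

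The proteasome degrades ubiquitin-tagged proteins, and in its immune form, with exchanged catalytic subunits, it makes peptides for MHC class I. Of 35 tested genes 30 had a fold above 0, 14 at an unadjusted p under 0.05, and none was at this p with a fold below 0. DESeq2 called 7. The median fold was 0.49, nearly the same in batch 1 (0.51) and batch 2 (0.52), and −0.12 in total mRNA. Psmb2, a core subunit, had 118, 170, 179, 269 and 190 CPM in large tumours and 22 to 93.5 CPM, median 67.8, in small tumours, without overlap (1.35 ± 0.29). Psmb8, an immune catalytic subunit, had 300.2, 465, 319, 420 and 256 CPM in large tumours and 83.3 to 253 CPM, median 148, in small tumours, again without overlap (1.20 ± 0.30). The immune subunit Psmb10 had a fold of 1.11 ± 0.29. The standard catalytic subunits that the immune ones replace had folds of 1.33 ± 0.32 (Psmb7), 1.07 ± 0.38 (Psmb5) and 0.89 ± 0.39 (Psmb6). Folds above 0 at an unadjusted p under 0.05 were thus found in both sets. Psmb5, Psmb6, Psmb8 and Psmb10 were named after their values were seen.

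MHC class II presents peptides to CD4 T cells, and H2-DM helps load them. The subunits of H2-DM had the lowest p of this list. H2-DMa had 496, 667, 350.1, 309 and 362 CPM in large tumours and 47.1 to 543 CPM, median 168, in small tumours (1.49 ± 0.39). H2-DMb2 had 327, 176, 167, 110 and 155 CPM in large tumours and 26.7 to 205 CPM, median 41.2, in small tumours (1.71 ± 0.42). For both, 1 large tumour exceeded every small tumour. H2-DMb1 had a fold of 1.18 ± 0.43, while H2-Ab1, a chain of the presenting molecule itself, had 0.64 ± 0.64. Of 13 tested genes 11 had a fold above 0 and 3 were at an unadjusted p under 0.05 (median 0.68, and 0.10 in total mRNA). Of the class I list, 9 of 13 had a fold above 0 and 2 were at this p, B2m, the light chain (0.96 ± 0.44), and H2-M3 (1.43 ± 0.45). The interferon response list had 25 of 46 folds above 0. Its 3 genes at this p were Bst2 (1.00 ± 0.35), Ifi35 (0.88 ± 0.35) and Ifitm3 (1.11 ± 0.49). Of all tested genes, 7.2% were at this p with a fold above 0. In batch 1 and batch 2 alone, the folds were −0.45 and 2.17 for Ifitm3, −0.22 and 1.78 for B2m, and 2.42 and 0.20 for H2-M3. The size by batch difference had an adjusted p of 0.741 for Ifitm3 (unadjusted p = 0.00054), 0.762 for B2m and 0.804 for H2-M3. The median of the interferon list was 0.12, and −0.11 without small replicate 7.

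Ribosomal protein genes had 64 of 72 folds above 0, 18 of them at an unadjusted p under 0.05 and none at this p with a fold below 0. Their median fold was 0.36, with 0.14 in batch 1, 0.54 in batch 2 and −0.09 in total mRNA. Rpl15 had 130, 215, 422, 548 and 438 CPM in large tumours and 44.5 to 216 CPM, median 78.3, in small tumours. Within each batch every large tumour lay above every small tumour, with folds of 1.44 in batch 1 and 1.08 in batch 2. Rpl19 (1.04 ± 0.28) and Rpl10 (1.05 ± 0.28) did not overlap within a batch either, with folds of 1.43 and 0.86 in batch 1 and 0.51 and 1.09 in batch 2. This pattern was not counted over all tested genes. Without small replicate 7, 11 genes of the list were at this p with a fold above 0 and 1 with a fold below 0. Ribosomal protein genes have many pseudogenes, which makes single values uncertain. The summed share of these genes was 0.895 to 6.50% of counts in large tumours and 0.691 to 5.39% in small tumours. It was lower in every batch 1 library (0.691 to 1.59%) than in any batch 2 library (4.33 to 6.50%). The mean share was 4.19 ± 2.73% in large tumours (SD, n = 5) and 2.61 ± 2.04% in small tumours (SD, n = 8), with p = 0.254 in a two-sided exact permutation test and p = 0.031 where libraries were exchanged within batches only. Of counts without Lars2 the mean share was 4.41 ± 2.84% in large tumours (SD, n = 5) and 2.94 ± 2.15% in small tumours (SD, n = 8), and the exact permutation p within batches was 0.107, so the within-batch call was lost.

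The other mRNAs that open with a pyrimidine tract did not share one direction. Of 17 elongation factors and related genes, 8 had a fold above 0, and 3 in each direction were at an unadjusted p under 0.05. Without small replicate 7 the counts were 3 above and 1 below 0. Eif3f, an initiation factor subunit (0.96 ± 0.27), and Eef1b2, a subunit of the elongation factor exchange complex (0.89 ± 0.34), were on one side. Pabpc1, the poly(A)-binding protein, was on the other, with 248, 137, 299, 415 and 481 CPM in large tumours against 144 to 1224 CPM, median 430, in small tumours (−0.94 ± 0.38). Of 33 initiation genes 17 had a fold above 0, with Eif3i (1.34 ± 0.33), Eif4h (0.83 ± 0.25) and Eif3g (0.94 ± 0.30) at the lowest p. Of 19 genes known for their dependence on eIF4E, 4 had a fold above 0 (median −0.26, and −0.28 in total mRNA). In batch 1 alone 9 had a fold above 0 (median −0.04), and without small replicate 7 the median was −0.17. The cap-binding protein gene Eif4e had a fold of 0.36 ± 0.35, and the genes of its kinases had 0.83 ± 0.44 (Mknk1) and 0.22 ± 0.34 (Mknk2).

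RNA-binding and splicing proteins had 10 of 24 folds above 0, with 5 genes at an unadjusted p under 0.05 with a fold below 0 and 1 with a fold above 0. Hnrnpl had 273, 343, 264, 191 and 319 CPM in large tumours and 430 to 760 CPM, median 504, in small tumours, without overlap (−0.90 ± 0.27). Its fold in total mRNA was −1.34. Hnrnpa3 had −1.39 ± 0.38 in polysomes and −0.00 in total mRNA. Srsf7, an SR splicing factor, had a fold above 0, with 45.6, 79.4, 85.7, 70.6 and 47.1 CPM in large tumours against 7.93 to 44.5 CPM, median 23.6, in small tumours, without overlap (1.33 ± 0.33).

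Of macrophage genes, complement and Fc receptor genes had 14 of 18 folds above 0 and 7 at an unadjusted p under 0.05 with a fold above 0 (median 0.66). Fcer1g, the signalling chain of Fc receptors, had 1352, 873, 1711, 1961 and 2129 CPM in large tumours and 129 to 1874 CPM, median 823, in small tumours (1.31 ± 0.53). Its fold was −0.10 in batch 1 alone and 2.31 in batch 2 alone. C1qa, a chain of complement C1q, had 0.98 ± 0.42, and Fcgr2b, an inhibitory Fc receptor, 1.03 ± 0.43. Macrophage identity genes had 13 of 16 folds above 0 and 5 at this p (median 0.58), among them Lyz2, lysozyme (1.38 ± 0.52), Cd14 (1.10 ± 0.42) and the lysosomal protein Cd68 (1.06 ± 0.42). In total mRNA the median was 0.14 for complement and Fc receptors and 0.01 for macrophage identity. Small replicate 7 had the lowest share of the macrophage markers. Without it the counts at an unadjusted p under 0.05 with a fold above 0 were 3 of 18 for complement and Fc receptors (median 0.45) and 5 of 16 for macrophage identity (median 0.32), with 1 gene below 0 at this p in each. In bulk samples, fewer cells of a type and less RNA per cell cannot be told apart.

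The alternative activation list had 18 of 26 folds above 0 and 2 genes at an unadjusted p under 0.05. At this p, 7.2% of all tested genes had a fold above 0, the share to set beside the counts of this and the next lists. The median of the alternative activation list was 0.43, with −0.04 in batch 1, 0.68 in batch 2 and 0.54 in total mRNA. Retnla, a secreted resistin-like protein, had 23.1, 162, 541, 38.9 and 66.1 CPM in large tumours and 12.9 to 84.3 CPM, median 28.1, in small tumours (2.36 ± 0.75), so large replicates 2 and 3 stood above all small tumours, and within batch 2 all 3 large tumours stood above the small ones. Folr2, a folate receptor of tissue macrophages, had 18.5, 359, 429, 473 and 359 CPM in large tumours and 9.71 to 253 CPM in small tumours (1.61 ± 0.74). In total mRNA the fold was 2.07 ± 0.79 for Retnla and 0.42 ± 0.55 for Folr2. Lipid handling had 19 of 24 folds above 0 (17 in batch 1 alone and 12 in batch 2 alone). Its median was 0.44, with 0.70 in batch 1, 0.05 in batch 2 and 0.41 in total mRNA. At an unadjusted p under 0.05 were Lipa, lysosomal acid lipase (0.83 ± 0.30), Fabp5, a fatty acid carrier (1.28 ± 0.47), and Nr1h3, the oxysterol receptor LXR alpha (1.29 ± 0.60). Hypoxia and glycolysis had 22 of 30 folds above 0 (24 in batch 1 alone and 13 in batch 2 alone, with medians of 0.52 and −0.12), with the glycolytic enzyme genes Aldoa (1.06 ± 0.38) and Pgam1 (0.96 ± 0.36) at this p and Gapdh at 0.61 ± 0.30. The lysosome list had 25 of 33 folds above 0 and 3 genes at this p. Its median was 0.28, with 0.38 in batch 1, −0.10 in batch 2 and 0.13 without small replicate 7.

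None of a panel of genes often followed in tumour macrophages had an unadjusted p under 0.05. Mrc1, the mannose receptor, had a fold of 0.07 ± 0.45, which was −0.03 with upper-quartile scaling, and Arg1, arginase, 0.17 ± 0.98. The secreted factors Vegfa (−0.26 ± 0.72), Tnf (−0.08 ± 0.61) and Il1b (0.46 ± 0.44) and the checkpoint ligand Cd274 (0.79 ± 0.71) had standard errors of 0.44 to 0.72. Spp1, osteopontin, had 322, 1646, 234, 676 and 176 CPM in large tumours and 216 to 4178 CPM, median 1562, in small tumours (−1.04 ± 0.55). Apoe, the lipid carrier, had 46086, 86925, 11759, 29411 and 20811 CPM in large tumours and 2475 to 31821 CPM, median 19565, in small tumours (1.04 ± 0.53). Hif1a (0.13 ± 0.25), Cebpb (−0.51 ± 0.31) and Csf1r (−0.35 ± 0.42) completed this panel.

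Genes of the unfolded protein response went both ways, with 10 of 19 folds above 0. Canx, a chaperone of the endoplasmic reticulum, had 123, 166, 69.9, 115 and 116 CPM in large tumours against 143 to 480.4 CPM in small tumours (−0.94 ± 0.32), whereas Herpud1 (0.87 ± 0.30) and the transcription factor Xbp1 (1.00 ± 0.34) had folds above 0. Cell cycle genes were also divided, with Ube2c at 1.07 ± 0.41, Kif11 at −1.94 ± 0.81 and Mki67 at −0.99 ± 0.44. Of the immediate early genes, Egr3 and Myc (0.65 ± 0.29) were at an unadjusted p under 0.05 on opposite sides.

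Of 33 gene lists with at least 5 tested genes, the fibroblast markers had the lowest median fold. Of 16 tested fibroblast markers 1 had a fold above 0 and 6 were at an unadjusted p under 0.05 with a fold below 0 (median −1.70). Col3a1, a fibrillar collagen, had 2.12, 12, 36.4, 38.7 and 18.5 CPM in large tumours and 11 to 818 CPM, median 25.3, in small tumours (−3.01 ± 1.00). Bgn, biglycan, had 4.70, 6.47, 5.91, 58.5 and 4.56 CPM in large tumours and 5.77 to 571 CPM, median 30.8, in small tumours (−3.41 ± 1.18), and Pdgfra, a growth factor receptor of fibroblasts, had −2.52 ± 0.91. The highest value of each of the 3 genes was in small replicate 7. Without that library the median of the list was −0.38, 0 of 16 genes were at this p, and Col3a1 had −1.39. The median share of the list was 0.0344% in large tumours and 0.031% in small tumours. Fn1, fibronectin (−1.01 ± 0.43), and Timp2, a protease inhibitor (−0.92 ± 0.40), of the matrix list, and Vcan, versican, of the monocyte list (−1.69 ± 0.78) had −0.89, −0.45 and −0.25 without small replicate 7. The median of the 16 tested epithelial and tumour markers was −0.92, and 0.08 without it. The counts at an unadjusted p under 0.05 also moved without this library, to 2 above and 2 below 0 in the unfolded protein response list, against 6 and 2 with it, and to 1 above and 0 below 0 in the cell cycle list, against 1 and 4 with it.

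**Figure D2:**
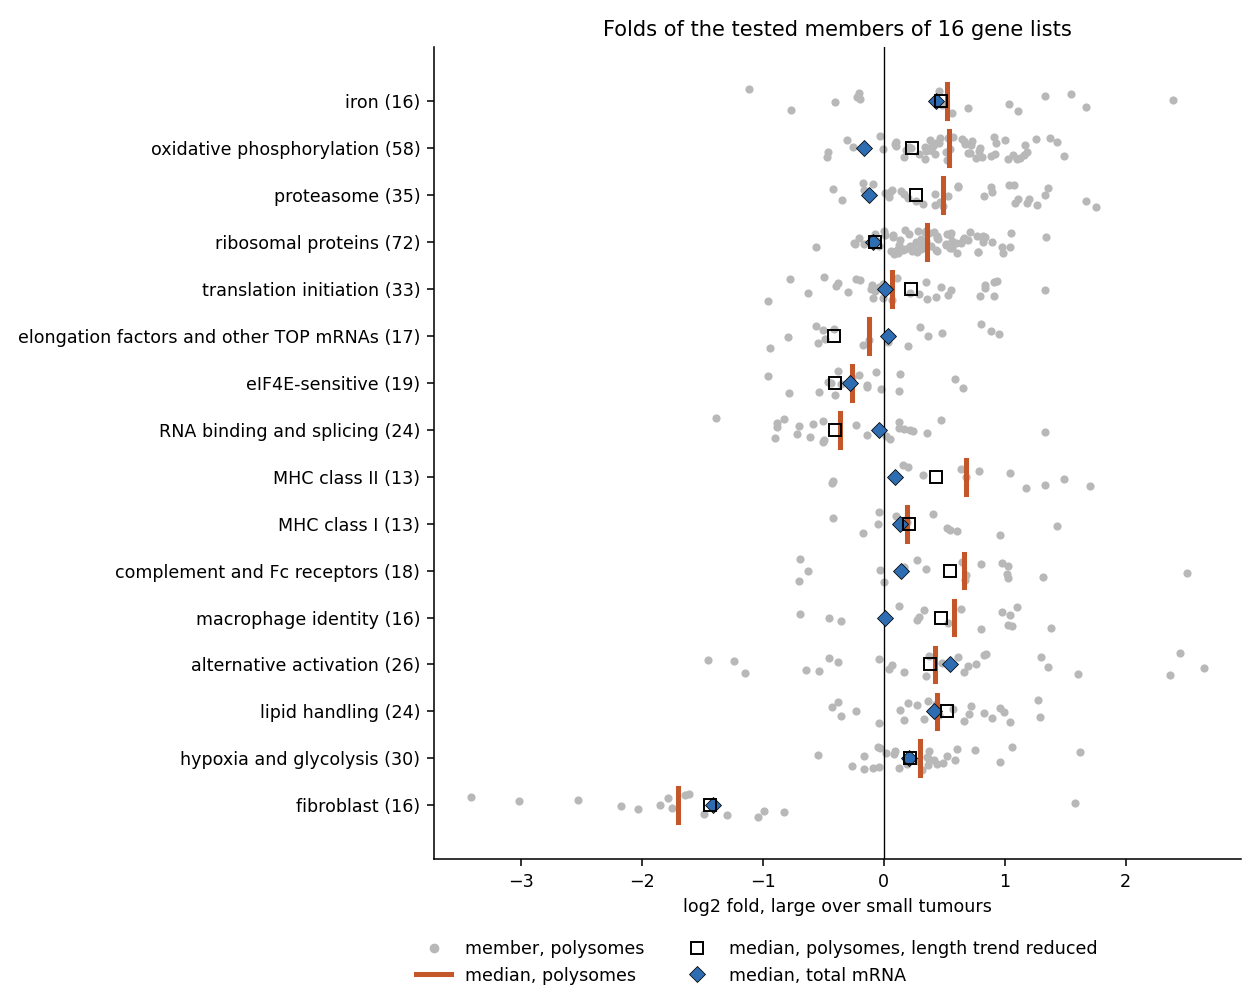
Log2 fold of large over small tumours for the tested members of 16 gene lists (number tested in brackets), with grey points for single genes in polysomes, orange bars for their median, open squares for the median with the length trend reduced, and blue diamonds for the median in total mRNA. Medians of oxidative phosphorylation, proteasome and ribosomal proteins lie at 0.54, 0.49 and 0.36 in polysomes and below 0 in total mRNA.

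The fold was related to the length of the mRNA. Across 10197 tested genes with a known transcript length (93.3%), the rank correlation of fold with length was −0.42, as a description across genes, which are not independent. In the shortest of 5 equal length classes, transcripts up to 1534 bases, the median fold was 0.41, and 18.7% of genes were at an unadjusted p under 0.05 with a fold above 0 against 1.32% with a fold below 0. In the longest class, from 4453 bases, the median was −0.39, with 0.98% above 0 and 12.4% below 0 at this p. The correlation was −0.15 in batch 1 and −0.46 in batch 2, and 0.11 in total mRNA. Each library's level deviation from the mean of the libraries was correlated with length at 0.07, 0.07, −0.38, −0.43 and −0.33 in large replicates 1 to 5 and at −0.12 to 0.36 in small tumours. The batch 2 large tumours lay below all other libraries, while the batch 1 large tumours lay within the range of the small ones.

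Reducing the length trend moved the medians of the gene lists by different amounts. The median transcript length was 751 bases in the respiratory chain list, 776 in ribosomal proteins and 1387 in the proteasome list. After each library's length trend was reduced, the medians were 0.23 for the respiratory chain, −0.07 for ribosomal proteins and 0.27 for the proteasome, with 9, 3 and 8 genes at an unadjusted p under 0.05 with a fold above 0. At this setting, chosen after seeing the data, 6 ribosomal protein genes were at this p with a fold below 0. Of lists of longer mRNAs, the iron list (median length 2503 bases) had a median of 0.47, RNA binding and splicing −0.40 and the eIF4E list −0.40, against 0.52, −0.36 and −0.26 before. MHC class II had 0.43. Complement and Fc receptors had 0.55, with 1 gene at this p with a fold above 0, against 7 before. Macrophage identity had 0.47, with 2 such genes against 5 before. Hagh had 1.65, Slc40a1 2.49, Fth1 1.06, Blvrb 1.28, Galnt1 −1.0 and Marcks −1.07. No gene was called at this setting. How far length, or a step of the preparation that depends on it, entered the folds was not tested.

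**Figure D3:**
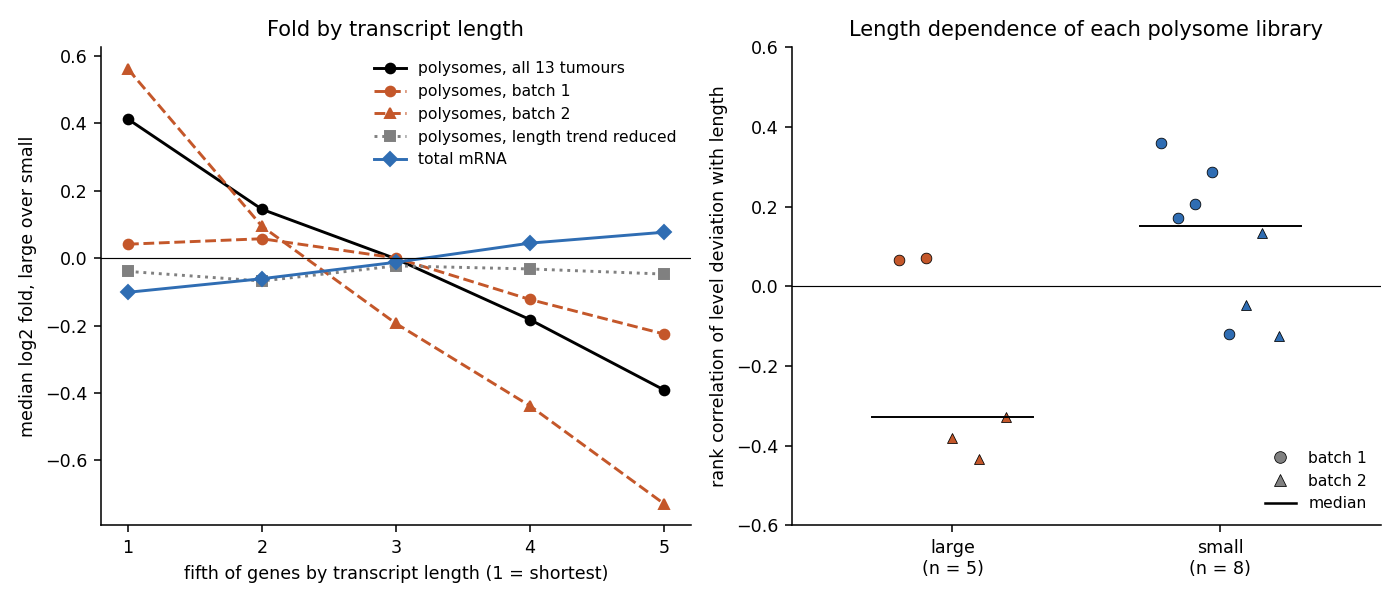
Left, median log2 fold of large over small tumours in 5 classes of genes by transcript length, for polysomes in all tumours, in each batch alone and with the length trend reduced, and for total mRNA. Right, rank correlation of each polysome library's level deviation with transcript length, by group, with circles for batch 1, triangles for batch 2 and lines for medians; the batch 2 large tumours have the lowest values, −0.43 to −0.33.

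Total mRNA of the same tumours was tested in the same way. Of 11671 genes 0 were called, and 170 genes were higher and 368 lower at an unadjusted p under 0.05. The difference between polysomes and total mRNA in the size fold was fitted over the 26 libraries, and 0 of 12109 genes were called (lowest adjusted p 0.279), with 747 above and 638 below 0 at an unadjusted p under 0.05. No gene can therefore be called particular to polysomes. The genes of at least 10 CPM with the lowest p for this difference were Commd2 (2.10 ± 0.44), Selk (1.82), Ndufb5 (1.84), Ap3s1, a subunit of an endosomal adaptor (2.20), and Dcakd (1.54). In polysomes the folds of Ap3s1 and Dcakd were 1.12 ± 0.45 and 1.18 ± 0.27, and in total mRNA −1.13 and −0.46. Of the respiratory chain list, 20 genes were at an unadjusted p under 0.05 for the difference with a value above 0 and none with a value below 0, and of the proteasome list 11 and none. The median difference was 0.61 in the respiratory chain list and 0.53 in the proteasome list. Across genes the difference had a rank correlation of −0.39 with transcript length. Its median was 0.49 in the shortest length class and −0.56 in the longest. How far length entered the counts of these lists was not tested.

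Lars2, the gene of a mitochondrial leucyl-tRNA synthetase, took a large share of polysome counts. The share was 10.5, 4.80, 6.01, 2.17 and 5.47% in large replicates 1 to 5 and 6.44 to 25.9%, median 14.4%, in small tumours. Its mean was 5.79 ± 3.02% in large tumours (SD, n = 5) and 14.6 ± 6.99% in small tumours (SD, n = 8). The two-sided exact permutation p was 0.0202, and 0.00476 where libraries were exchanged within batches only, for which the smallest possible p is 0.00238. The share also differed by batch. Its mean was 7.65% in large and 18.6% in small tumours of batch 1, and 4.55% and 7.98% in batch 2. Within batch 1, large replicate 1 (10.50%) lay above small replicate 5 (10.34%). In total mRNA the share was at most 0.902%. Without large replicate 4 the exact permutation p was 0.0586. The fold of Lars2 in the fit across genes was −0.92 ± 0.46 (adjusted p = 0.415). With Lars2 left out of the library size, 0 of 10970 genes were called (lowest adjusted p 0.103), 682 were higher and 705 lower at an unadjusted p under 0.05, and the median fold of all genes was −0.06. Hagh then had 2.01, Slc40a1 2.34, Galnt1 −1.23 and Marcks −1.31, and the median was 0.49 for the respiratory chain and 0.43 for the proteasome.

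**Figure D4:**
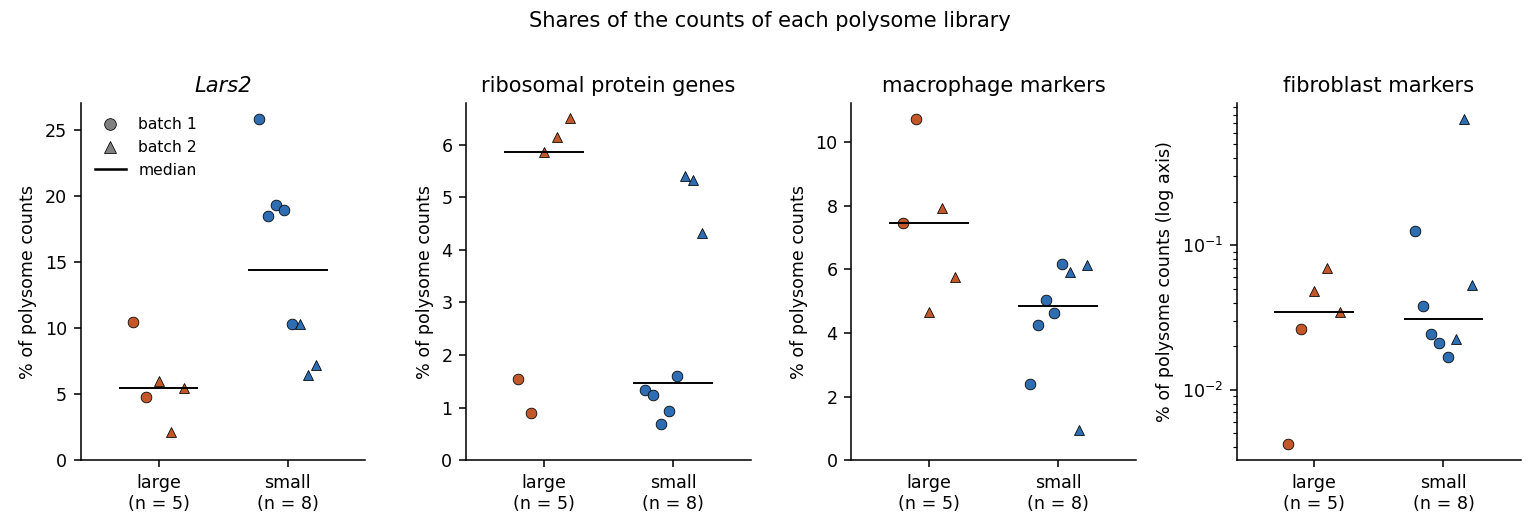
Share of the counts of each polysome library taken by Lars2, ribosomal protein genes, 16 macrophage markers and 18 fibroblast markers, in percent (the last on a log axis), with circles for batch 1, triangles for batch 2 and lines for medians. Lars2 ranges from 2.17 to 10.5% in large and 6.44 to 25.9% in small tumours, ribosomal protein shares divide by batch, and small replicate 7 has the lowest macrophage and highest fibroblast share.

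Whether the batches differed in the size fold was tested with a size by batch term. It gave 0 called genes of 10933 (lowest adjusted p 0.690) and 655 at an unadjusted p under 0.05. In batch 1 alone, with 2 large and 5 small tumours, 323 genes were higher and 257 lower at an unadjusted p under 0.05. In batch 2 alone, with 3 large and 3 small tumours, 783 were higher and 914 lower, and 0 were called in either. Some lists had medians of opposite sign in the batches. Chemokines and their receptors had −1.06 in batch 1 and 0.71 in batch 2, and histones −0.56 and 0.56. Lysosome, hypoxia and glycolysis, MHC class I, the unfolded protein response and the cell cycle had medians above 0 in batch 1 and below 0 in batch 2, and monocyte markers and alternative activation the reverse. Small replicate 5 had a Lars2 share of 10.3% and a correlation of level deviation with length of −0.12. The other batch 1 small tumours had 18.5 to 25.9% and 0.17 to 0.36. Without small replicate 5, 39 genes were called higher and 3 lower, for reasons not tested. Of these, 35 were among the 152 called by DESeq2 in all libraries. Fth1, Blvrb, Psmb2, Psmb7, Sdhb, Tecr, Rab20, Hagh and Slc40a1 were among those higher and Galnt1 and Ctdspl among those lower.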

How the data were processed

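RNA-seq of macrophages from 13 tumours gave a polysome and a total mRNA library each. Per the labels' protocols, libraries were made with SmartSeq2. Per the submitters' processing notes, HISAT2, HISAT, limma and mm10 were used, with no role named. How reads were counted, and whether strand was used, is not given in the sources used here, so overlapping genes may share reads. The authors deposited whole-number read counts for 19549 gene rows, 830 of which join overlapping genes. A second deposited column, log2 values of 10472 genes, differed from the log2 of the counts by 1 constant per library and was only checked.

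Low counts were removed with filterByExpr on size class and the rest TMM-scaled. edgeR 4.0.16 (R 4.3.3, robust quasi-likelihood fit) tested size with batch as a further term, with Benjamini-Hochberg adjustment at 0.05. DESeq2 1.42.0 (1788 adjusted p NA) and limma 3.58.1 (voom) were alternatives. The difference between RNA sources was fitted with the tumour as a block. A standard error is the fold over the root of F. Transcript length is the median over coding transcripts of GENCODE M21, and its trend was reduced per library with a lowess of span 0.3. The fits were tested on simulated counts. Lists are given by counts and medians, with no set test. Counts of iron-responsive elements among compared genes leave out chromosome 18. The labels do not say whether each tumour came from its own mouse, so p-values measure the spread between these tumours.

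Named genes were the 10 in each direction with the lowest p and a mean of at least 10 CPM, the 3 of a list with the lowest p, 5 for the difference between RNA sources, Lars2 and a panel. The size classes, lists and panel were chosen with earlier results of these data known. Deviations of the LR and ER tumours with the same number correlated at −0.04, 0.04 and 0.05, and those with unlike numbers at −0.09 to 0.08. With 3 pairs, these values cannot settle whether the numbers pair samples. Depth was 7034173 to 28257436 counts per polysome library, which limits precision at low levels.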

Additional observations from a re-analysis of the deposited data

Results flagged for a closer look

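A library is given here when its distance to the nearest library of its group, as a part of the range of the group, passed Dixon's limit. This was so for 31 of 208 groups of values. For normally distributed values the limit flags about 1 in 20 groups by chance. The CPM were not put on a log scale and the groups held both batches, so that rate need not hold here. Values of several genes come from the same library and are not independent.

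Small replicate 7 had a median correlation with the other polysome libraries of 0.651. It had the highest value of the small tumours for Ctdspl (68.7 CPM), D16Ertd472e (129.9 CPM), Tia1 (88.8 CPM), Kif11 (16.2 CPM), Timp2 (5291 CPM), Vcan (212 CPM), Col3a1 (818 CPM), Bgn (571 CPM) and Pdgfra (221 CPM). Its share of fibroblast markers, 0.742%, was the highest as well. The part of other cells in these values was not tested.

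Among large tumours, replicate 2 was highest for Mrc1 (906 CPM), Csf1r (10235 CPM), Ifi35 (151 CPM), Fcgr2b (1646 CPM) and Fn1 (1757 CPM) and lowest for Mknk1 (24.3 CPM). Large replicate 1 was highest for Galnt1 (140 CPM) and H2-Ab1 (4414 CPM) and lowest for Folr2 (18.5 CPM). Large replicate 3 was highest for Commd2 (86.2 CPM) and Retnla (541 CPM), large replicate 4 for Bgn (58.5 CPM) and large replicate 5 for Sox4 (27.8 CPM).

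Among the other small tumours, replicate 3 was highest for H2-Ab1 (4044 CPM) and Retnla (84.3 CPM). Replicate 5 was highest for Aldoa (1257 CPM), Cd14 (497 CPM) and Psmb6 (754 CPM), and replicate 6 for Hif1a (128 CPM), Canx (480.4 CPM) and Hnrnpa3 (115 CPM).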

How the results depend on the processing

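With 0 genes called in large against small tumours, some settings gave calls: 3 higher without a filter on low counts, 1 higher with log2 tumour weight, and 92 higher and 60 lower with DESeq2. Leaving out 1 library gave 0 to 39 higher (39 without small replicate 5, 1 without small replicate 6) and 0 to 3 lower. The causes were not tested. At an unadjusted p under 0.05, 787 genes were higher and 575 lower. There were 941 lower without a filter, 372 lower without a batch term, 323 higher and 257 lower in batch 1 alone, 914 lower in batch 2 alone, 885 lower with DESeq2, 1188 higher with voom and 513 higher with the length trend reduced, a setting added after seeing the data. Leaving out 1 library gave 542 to 1035 higher and 398 to 761 lower. Without a filter 8 genes were called for the difference between RNA sources. With libraries thinned to equal depth, a setting also added after seeing the data, 0 genes were called. At an unadjusted p under 0.05, 721 were then higher and 597 lower. Depth limits single genes at a few CPM.

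With the numbers of the LR and ER tumours as a replicate block, 0 genes were called, with 757 higher and 415 lower at an unadjusted p under 0.05, and within batch 2 alone 0 were called, with 674 and 653. The block changed no call. It turned Tnf to 0.30 (1.25 within batch 2), and within batch 2 Cd274 to −0.43, Hif1a to −0.15 and Vcan to 0.080.

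The Lars2 difference in share was −10.0 to −7.23 percentage points with 1 library left out, and −7.93 without large replicate 4, where it missed the threshold. The difference in ribosomal protein share was 1.00 to 2.40, and 1.58 with p = 0.031 in the exact permutation test within batches. Of counts without Lars2 it was 1.47, with an exact permutation p of 0.107 within batches.

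Of 2736 refits of named genes, 45 gave the opposite sign. In batch 1 alone these were Mrc1 (−0.24), Arg1 (−1.31), Vegfa (0.53), Il1b (−0.13), Mknk1 (−0.10), Eif4e (−0.25), B2m (−0.22), Ifitm3 (−0.45) and Fcer1g (−0.10). In batch 2 alone they were Tnf (0.39), Cd274 (−0.31), Hif1a (−0.16) and Lipa (−0.0017). Other settings turned Mrc1 (−0.034 with upper-quartile scaling, −0.42 without a batch term, −0.14 with voom), Tnf (0.0065 with log2 tumour weight, 0.40 with voom), Cebpb (0.0025 without a batch term), and Arg1 (−0.11) and Eif4e (−0.23) with the length trend reduced. With 1 library left out, the fold was −0.42 to 0.43 for Mrc1, −0.44 to 0.69 for Arg1, −1.27 to 0.18 for Vegfa, −0.46 to 0.32 for Tnf, −0.38 to 1.03 for Cd274, −0.019 to 0.40 for Mknk2 and −0.055 to 0.20 for Hif1a. Of 923 list medians under other settings, 118 had the opposite sign. With a mean of at least 10 CPM required, no endothelial marker was left.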
